A study of Homo sapiens with 16 samples.

Results

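The genes described here encode oxidative phosphorylation, the respiratory chain and ATP synthase of the inner mitochondrial membrane. They were taken from the deposited count table by symbol: every gene starting with MT-, the subunit families NDUFA, NDUFB, NDUFC, NDUFS and NDUFV (complex I), UQCR (complex III), COX4I, COX5, COX6, COX7 and COX8 (complex IV) and ATP5F1, ATP5M and ATP5P (complex V), together with SDHA to SDHD (complex II), CYC1 and CYCS, with assembly factors left out. This gave 109 of the 18332 genes in the table, 16 encoded in mitochondrial DNA (13 messenger RNAs, 2 ribosomal RNAs and 1 transfer RNA, MT-TA) and 93 encoded in the nucleus (82 subunits, 2 readthrough genes, 6 pseudogenes and 3 long noncoding RNAs). Of the 109, 107 reached 0.5 CPM (reads scaled to a common library total) in at least 2 of the 16 libraries. RNA was sequenced from MDA-MB-231 and MDA-MB-468, 2 established human breast cancer cell lines that lack the estrogen receptor, after 48 hours in 5 mM glucose (low, the control) or 25 mM glucose (high), with 4 libraries in each of the 4 groups. The study describes the cells as conditioned in low-glucose medium and then placed in serum-free medium at either concentration, and as grown before that in DMEM (MDA-MB-231) or RPMI (MDA-MB-468). No allele or other agent separated the groups. Each line is a single line, and the labels do not say that replicates came from separate cultures, so the p-values measure the spread between these libraries, which may be technical.

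Oxidative phosphorylation passes electrons from NADH and succinate through complexes I to IV to oxygen and uses the resulting proton gradient to make ATP at complex V. Its subunits come from 2 genomes: mitochondrial DNA is transcribed into long precursors that are cut into ribosomal RNAs, transfer RNAs and the messenger RNAs of core membrane subunits, while all other subunits are transcribed in the nucleus and imported. Complex II and cytochrome c are encoded in the nucleus alone, and every other complex needs both genomes. Tumor cells in culture differ in how far they rely on respiration or on glycolysis, and glucose supply is one of the conditions that shifts that balance.

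Adjacent mitochondrial genes can share bases, which limits how reads are assigned to them. In the 2 pairs with the longer overlaps, shown because values of both partners are reported, MT-ATP8 (207 bases) and MT-ATP6 (681 bases) share 46 bases and MT-ND4L (297 bases) and MT-ND4 (1378 bases) share 7. The sequences are from the GRCh37 reference with GENCODE coordinates, and capitals mark the shared bases.
MT-ATP8/MT-ATP6 (chrM:8518-8581, + strand): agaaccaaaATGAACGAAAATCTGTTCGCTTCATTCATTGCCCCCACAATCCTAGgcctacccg
MT-ND4L/MT-ND4 (chrM:10751-10775, + strand): cctactccaATGCTAAaactaatcg
MT-ATP6 and MT-CO3 share 1 further base. MT-ND6 lies on the strand opposite to the other 12 messenger RNAs, and whether reads were counted by strand is not given in the sources used here. The table also holds nuclear copies of mitochondrial genes, among them MTCO1P12 on chromosome 1, with which near-identical reads of MT-CO1 could be split. MTCO1P12 averaged 1726 normalized reads in MDA-MB-231 low, 1615 in MDA-MB-231 high, 1061 in MDA-MB-468 low and 919 in MDA-MB-468 high, far below the 96116 to 139172 of MT-CO1.

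Values below are normalized read counts, the deposited unit: reads divided by a factor for the size of each library. Dividing them back gave 14094597 to 24425916 reads per library. VIM (vimentin, a mesenchymal filament) averaged 5548 CPM in MDA-MB-231 low and 1.37 in MDA-MB-468 low. KRT5 (a basal epithelial keratin) averaged 0.0649 and 964 CPM in the same order. The 9 mesenchymal markers listed summed to 11439 to 11877 CPM in MDA-MB-231 low and 2092 to 2196 in MDA-MB-468 low. The 10 epithelial and basal ones summed to 1298 to 1396 and 7848 to 8112. CD44 (1038 against 1622) and SPARC (0.32 against 0.499), both mesenchymal, were not higher in MDA-MB-231 low. KRT19, EGFR and CLDN4, listed as epithelial or basal, still stood at 709, 527 and 100 CPM there. ESR1, the estrogen receptor gene, averaged 0.0753 to 3.68 CPM over the 4 groups. The summed level of the 5 immune and endothelial markers found, of 8 listed, was 5.57 to 9.66 CPM in the MDA-MB-231 libraries, 5.95 to 8.59 in MDA-MB-468 low and 11.99 to 15.8 in MDA-MB-468 high, above every other library, with LYZ at 0 in MDA-MB-468. Most of this sum was CD14, at 5.99 CPM in MDA-MB-468 low and 12.93 in MDA-MB-468 high. VWF averaged 0.52 and 0.922 in the same order, PTPRC 0.558 and 0.194 and CDH5 0.0377 and 0.0355. The part of the higher sum of MDA-MB-468 high in the results was not tested. In bulk RNA, fewer cells of a kind and less RNA per cell cannot be told apart. MDA-MB-231 low replicate 3 had the lowest value of its group for all 13 mitochondrial messenger RNAs, and MDA-MB-231 high replicate 1 for 10. In both MDA-MB-468 groups replicate 3 was lowest for 11 of them, and replicate 4 was highest, for 13 in low and 9 in high glucose.

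The balance between the genomes was first compared as shares of all reads. The 13 mitochondrial messenger RNAs took 2.50%, 2.47%, 2.28% and 2.54% of reads in the 4 MDA-MB-231 low libraries and 2.20%, 2.24%, 2.40% and 2.42% in the 4 high libraries. These groups overlapped. In MDA-MB-468 they took 2.22%, 2.41%, 2.19% and 2.56% in low glucose and 1.91%, 2.04%, 1.84% and 2.07% in high glucose, so that every high library lay below every low one. The 93 nuclear members took 0.837%, 0.823%, 0.833% and 0.797% of reads in MDA-MB-468 low and 0.928%, 0.895%, 0.941% and 0.938% in MDA-MB-468 high, again without overlap but in the opposite direction. In MDA-MB-231 the nuclear share was 0.603% ± 0.0105 (SD, n = 4) in low and 0.623% ± 0.0102 in high glucose. The mitochondrial messenger share was also divided by the share of the 84 protein-coding nuclear members. That ratio was 2.86 ± 0.271 in MDA-MB-468 low and 2.13 ± 0.143 in MDA-MB-468 high, against 4.06 ± 0.197 and 3.72 ± 0.206 in MDA-MB-231. Shares of one library sum to a whole, so a lower mitochondrial share raises all others slightly.

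**Figure D1:**
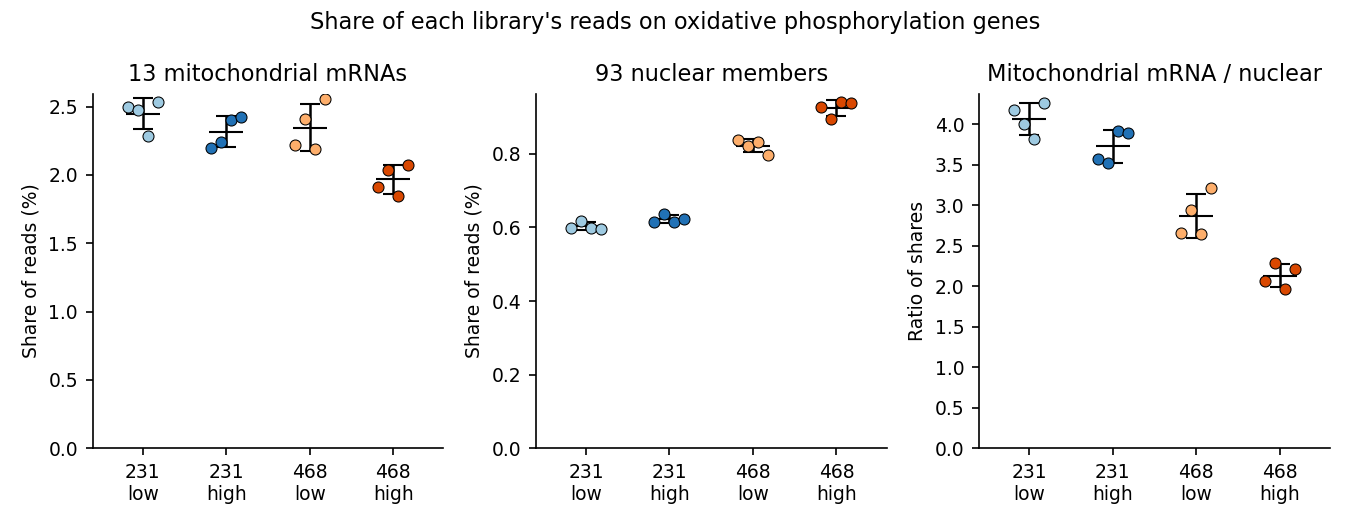
Share of each library's reads, in percent, on the 13 mitochondrial messenger RNAs and on the 93 nuclear members, for both cell lines at low and at high glucose. The third panel gives the mitochondrial share divided by that of the 84 protein-coding nuclear members. Each point is 1 library, and bars give the mean and SD of 4. In MDA-MB-468 the mitochondrial share is lower and the nuclear share higher in all 4 high-glucose libraries.

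Per length of transcript, the mitochondrial messenger RNAs stood well above the nuclear ones. In TPM (reads per transcript base on a common total, computed from the recovered reads and 1 transcript length per gene), the median of the 13 mitochondrial messenger RNAs was 2436 in MDA-MB-231 low and 2400 in MDA-MB-468 low, and the median of the 82 nuclear subunits was 128 and 149. The mitochondrial genes ran from 1074 TPM (MT-ND6) to 12532 TPM (MT-CO1, the catalytic subunit of complex IV) in MDA-MB-231 low. In MDA-MB-468 low they ran from 1103 TPM (MT-ND3) to 10650 TPM (MT-CO1). The nuclear subunit with the highest level was COX6A1 at 788 TPM in MDA-MB-231 low and NDUFS5 at 1277 TPM in MDA-MB-468 low. NDUFA4L2, a paralog of the complex IV subunit NDUFA4, was lowest of the nuclear subunits in every group. The study names an mRNA library kit for its tumors and no separate one for these cell lines. How evenly such libraries recover each mitochondrial RNA, the ribosomal RNAs and MT-ND6 among them, was not tested.

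The next question was how the members of each genome responded to high glucose in MDA-MB-468. None of the 16 mitochondrial genes rose and 15 fell, while 65 of 90 nuclear members tested rose and 3 fell (limma, adjusted p under 0.05, hereafter "called"). Over all 15757 genes tested in this line, 24.9% were called higher and 22.7% lower. The median log2 difference (high minus low) was -0.24 for the mitochondrial genes and 0.24 for the nuclear members, against 0.0001 for all genes tested. High and low libraries did not overlap for 13 mitochondrial genes and 61 nuclear members, against 42.5% of all genes tested.

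Among the mitochondrial RNAs of MDA-MB-468, the 2 ribosomal RNAs had the largest differences. MT-RNR2, the 16S ribosomal RNA of the large mitochondrial subunit, stood at 75549, 85075, 74716 and 83004 normalized reads in the low libraries and at 48315, 48158, 42108 and 45652 in the high libraries. The groups lay far apart, and the difference was -0.79 ± 0.05 on the log2 scale (SE; limma adjusted p = 1.1e-09). MT-RNR1, the 12S ribosomal RNA of the small subunit, stood at 10511, 12080, 10647 and 10435 in low and at 10737, 9208, 4934 and 5033 in high glucose. Its high libraries split into replicates 1 and 2, near the low group, and replicates 3 and 4, well below every low library. The difference was -0.63 ± 0.18 (limma adjusted p = 0.00866), and DESeq2 did not call it (adjusted p = 0.115). The ratio of 16S to 12S reads was 4.5, 5.23, 8.53 and 9.07 in the 4 high libraries and 7.02 to 7.95 in the low ones, so the 2 ribosomal RNAs of these libraries did not vary together.

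All 13 mitochondrial messenger RNAs fell in MDA-MB-468, by 0.15 to 0.38 on the log2 scale, and 12 of them without overlap. MT-ND4L and MT-ND4, core membrane subunits of complex I read from 1 shared messenger, fell the most. MT-ND4 stood at 37292, 41309, 37243 and 44100 in low and at 30805, 33332, 29750 and 34582 in high glucose. Every high library lay below the lowest low library, a log2 difference of -0.32 ± 0.05 (limma adjusted p = 0.000111). MT-ND4L differed by -0.38 ± 0.06 (limma adjusted p = 9.7e-05). The other complex I messengers, MT-ND1, MT-ND2, MT-ND3, MT-ND5 and MT-ND6, differed by -0.27 to -0.18. MT-CYB, the cytochrome b of complex III, differed by -0.23 ± 0.05 (limma adjusted p = 0.0013). Of complex IV, MT-CO1 differed by -0.23, MT-CO2 by -0.15 and MT-CO3 by -0.15, and of complex V, MT-ATP6 by -0.25 and MT-ATP8 by -0.29. MT-TA, at 25.9 and 25.0 normalized reads on average, was the member not called (log2 difference -0.07 ± 0.22).

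**Figure D2:**
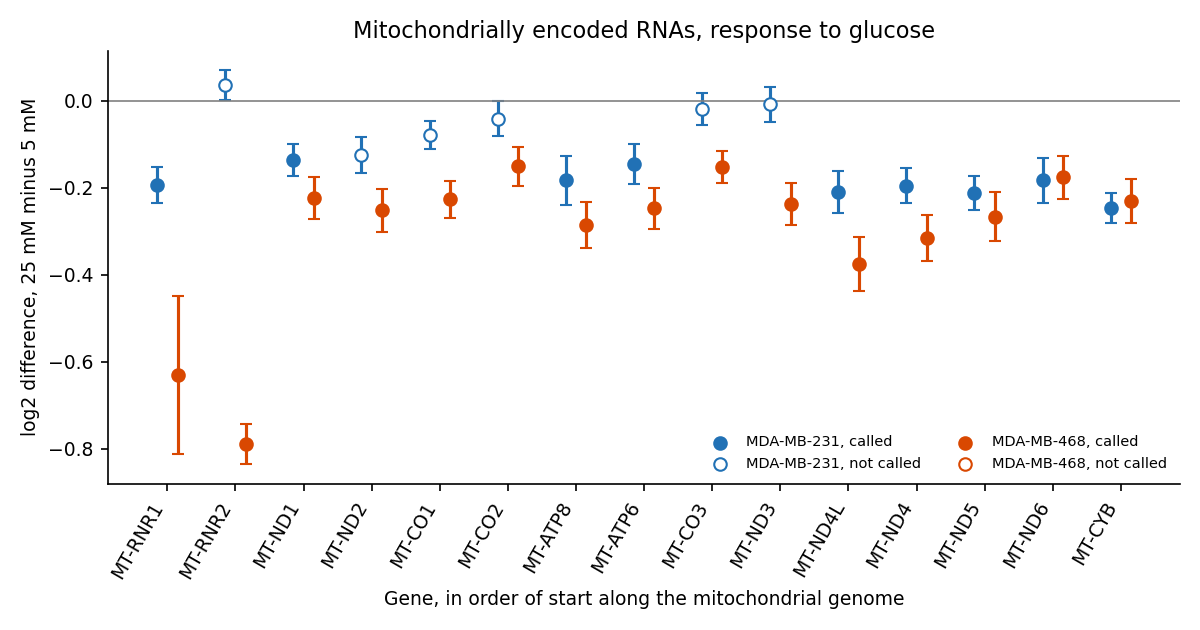
Log2 difference between 25 mM and 5 mM glucose for the 15 mitochondrial messenger and ribosomal RNAs, in order of their start along the mitochondrial genome, in MDA-MB-231 (blue) and MDA-MB-468 (orange). Points are limma estimates with SE over 4 against 4 libraries, filled where called. All 15 are below 0 and called in MDA-MB-468, from -0.15 for MT-CO2 to -0.79 for MT-RNR2.

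The nuclear subunits of MDA-MB-468 went the other way, complex by complex. Of the subunits tested, 28 of 37 rose in complex I, 2 of 4 in complex II, 8 of 10 in complex III, 11 of 13 in complex IV and 15 of 17 in complex V, and CYCS rose too. The subunits that fell were 2 of complex I and 1 of complex V. The median log2 difference was 0.25 for complex I, 0.11 for complex II, 0.19 for complex III, 0.26 for complex IV and 0.24 for complex V. None of the 6 noncoding or pseudogene members tested was called.

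In complex I, the NADH dehydrogenase, NDUFA5 had the largest rise. This accessory subunit of the peripheral arm stood at 463, 504, 433 and 445 normalized reads in low glucose and at 852, 757, 826 and 786 in high glucose. Every high library was above the highest low one, a fold of 1.75 (log2 difference 0.80 ± 0.06, limma adjusted p = 8.62e-09). NDUFA12, another accessory subunit of that arm, stood at 286, 265, 253 and 261 in low and 415, 381, 373 and 391 in high glucose. These groups did not overlap either (log2 difference 0.55 ± 0.06, limma adjusted p = 2.17e-06). NDUFS7, which carries the last iron-sulfur cluster before ubiquinone, rose by 0.50 ± 0.07 (limma adjusted p = 2.16e-05), NDUFS4 by 0.44 ± 0.07 and NDUFB8 by 0.38 ± 0.06.

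Against this, 2 core subunits of complex I fell in MDA-MB-468. NDUFS1, the large iron-sulfur subunit that takes electrons from the flavin site, stood at 2508, 2660, 2520 and 2586 in low and at 2242, 2121, 2068 and 1961 in high glucose. All high libraries were lower (log2 difference -0.29 ± 0.04, limma adjusted p = 1.36e-05). NDUFS3, a core subunit of the same arm, stood at 1839, 1841, 1869 and 1761 in low and at 1631, 1509, 1676 and 1712 in high glucose. The highest of the high libraries was just below the lowest of the low ones (log2 difference -0.16 ± 0.04, limma adjusted p = 0.00322).

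Of complex II, which oxidizes succinate, SDHC (a membrane anchor) rose by 0.17 ± 0.04 (limma adjusted p = 0.00125) and SDHA (the flavoprotein) by 0.13 ± 0.03 (limma adjusted p = 0.00253). SDHB (the iron-sulfur subunit) differed by -0.07 ± 0.04 and SDHD (the other anchor) by 0.09 ± 0.04, neither called. In complex III, CYC1, the cytochrome c1 that hands electrons to cytochrome c, stood at 1598, 1493, 1643 and 1474 in low and at 2069, 2113, 2201 and 2288 in high glucose. The groups lay apart by more than the range of either (log2 difference 0.48 ± 0.04, limma adjusted p = 1.27e-07). CYCS, cytochrome c itself, rose by 0.10 ± 0.03 (limma adjusted p = 0.011), a call lost under quantile scaling and under scaling by nuclear reads.

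Of complex IV, cytochrome c oxidase, COX7A2L had the largest rise. This relative of COX7A2 links complexes III and IV in supercomplexes, and it rose by 0.42 ± 0.04 (limma adjusted p = 2.95e-07). The ubiquitous isoforms COX4I1, COX6A1, COX6B1, COX7A2 and COX8A rose by 0.17 to 0.30, and NDUFA4 by 0.22 ± 0.04. NDUFA4L2 stood at 12.25 to 22.1 normalized reads in low and 12.6 to 24.0 in high glucose and was not called. Of the 16 isoform genes asked for, 11 were found; COX4I2, COX6A2, COX6B2, COX7A1 and COX8C were not analysed here.

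In complex V, ATP synthase, the 3 genes ATP5MC1, ATP5MC2 and ATP5MC3 encode 1 identical mature c subunit of the rotor ring. All 3 rose in MDA-MB-468. ATP5MC3 stood at 1655, 1528, 1611 and 1519 in low and at 2097, 2042, 2282 and 2252 in high glucose. No library of one group reached the other (log2 difference 0.46 ± 0.04, limma adjusted p = 2.24e-07). ATP5MC2 rose by 0.45 ± 0.04 and ATP5MC1 by 0.35 ± 0.07. ATP5ME, subunit e of the membrane part, rose by 0.47 ± 0.06 (limma adjusted p = 6.26e-06). ATP5PF, a subunit of the peripheral stalk, stood at 1967, 1993, 1960 and 1896 in low and at 1762, 1784, 1851 and 1859 in high glucose. It fell by 0.11 on the log2 scale (SE 0.03, limma adjusted p = 0.0152), without overlap, and was not called under GC correction or without MDA-MB-468 high replicate 1 (adjusted p up to 0.231).

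**Figure D3:**
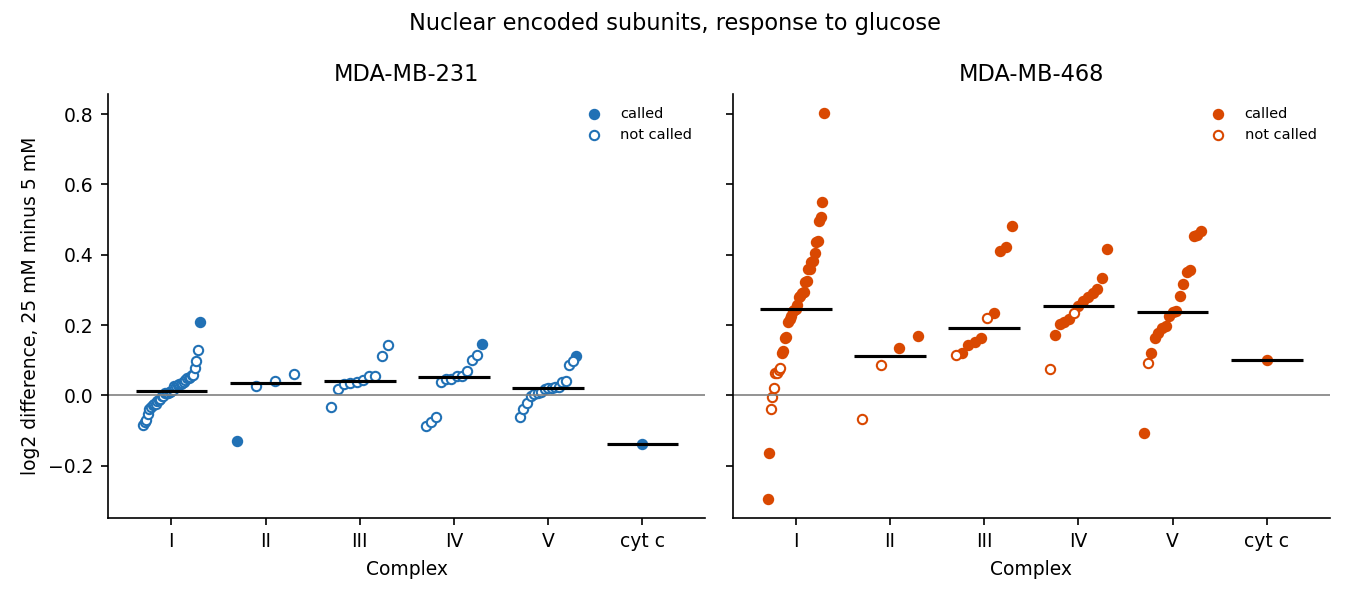
Log2 difference between 25 mM and 5 mM glucose for the nuclear encoded subunits of each complex in each cell line, with 1 point per gene, sorted within a complex and filled where called by limma. Black lines are medians over the subunits. In MDA-MB-468 the medians lie between 0.10 and 0.26, and 28 of 37 complex I subunits are called higher.

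**Figure D4:**
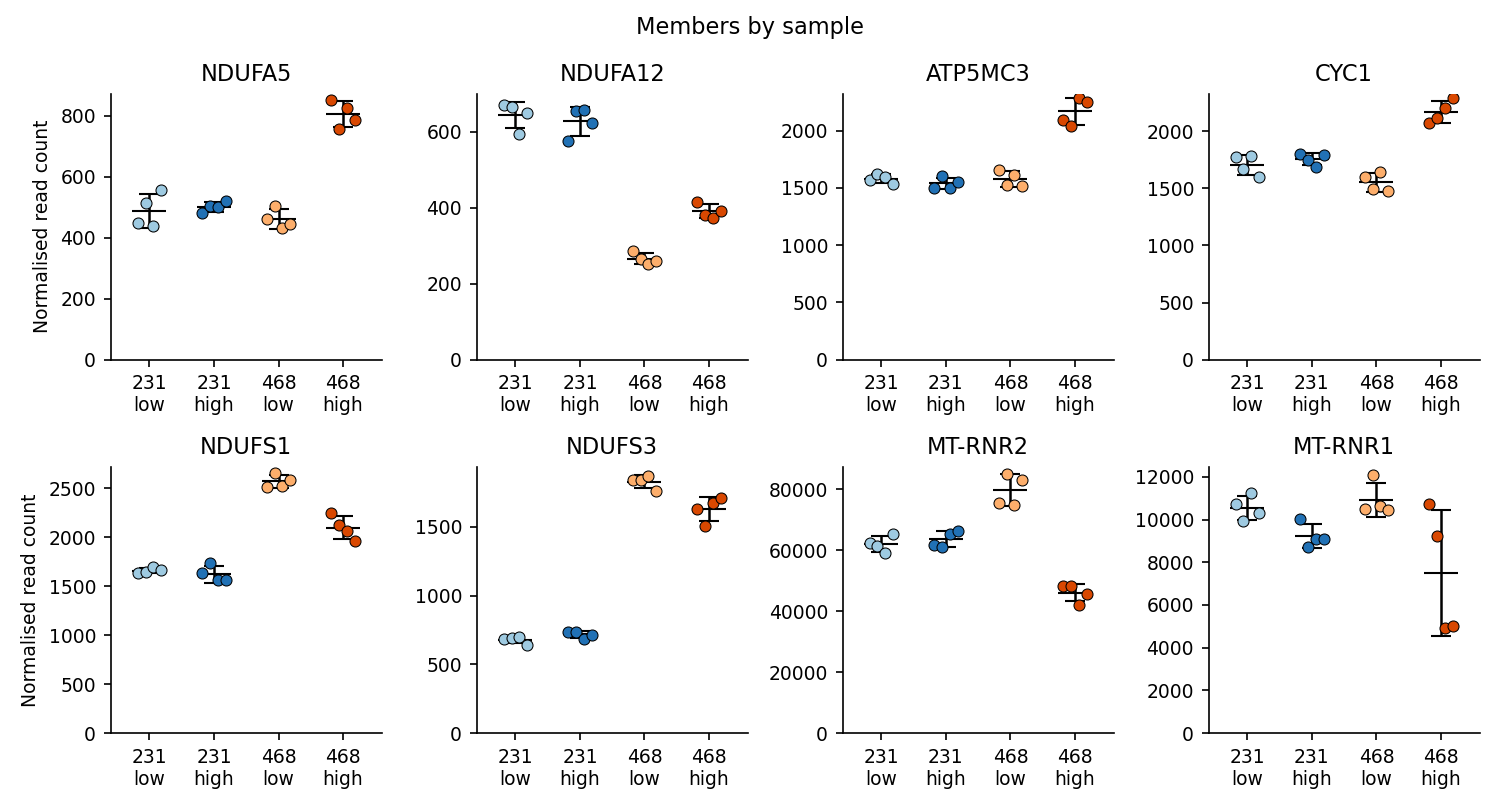
Normalized read counts of 8 members in each library, by cell line and glucose group (low or high). Points are libraries, and bars give the mean and SD of 4. NDUFA5, NDUFA12, ATP5MC3 and CYC1 are higher and NDUFS1, NDUFS3 and MT-RNR2 lower in all 4 MDA-MB-468 high libraries, while those of MT-RNR1 split into 10737 and 9208 against 4934 and 5033.

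The nuclear members have short transcripts, with a median of 812 bases in this fit against 2987 for all genes tested, and differences in this table vary with length. Among 2835 other genes between the lower and upper quartile of the members' lengths (581.5 to 1639 bases), the median log2 difference in MDA-MB-468 was 0.06, with 28% called higher and 11.9% lower. In MDA-MB-468 the 44 members in that range had a median of 0.24, with 31 called higher and 1 lower. In MDA-MB-231, where the quartiles were 586 and 1648 bases, the medians were 0.05 for 2552 other genes and 0.03 for 45 members. After a correction for transcript length, 65 nuclear members were called higher and 3 lower in MDA-MB-468, and 1 higher and 3 lower in MDA-MB-231. Of all 15243 genes tested with that correction in MDA-MB-468, 4115 were called higher and 3204 lower. In MDA-MB-231 these were 843 and 1328 of 14436 genes.

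Start-site sequences are shown for nuclear members that moved together or apart in MDA-MB-468. Windows from 250 bases before to 50 after the start were matched by symbol in RefSeq (GRCh38.p14) for 66 of the 82 nuclear subunits and searched on both strands for 3 sequences of 7 letters that are known in promoters of this gene class: GCATGCG (core of the NRF1 motif, which overlaps its own reverse in CGCATGCG), CCGGAAG (bound by ETS factors such as GABP) and AAGATGG (YY1). GCATGCG was in 21.2% of the subunits' windows and 4.13% of all 27305 windows, CCGGAAG in 30.3% and 10.7%, and AAGATGG in 24.2% and 6.06%. At least 1 of the 3 was in 29 of the 53 windows of subunits that rose in MDA-MB-468 and in 9 of the other 13. Taken singly, GCATGCG was in 8 of the 53 and 6 of the other 13, CCGGAAG in 14 and 6, and AAGATGG in 13 and 3. Stretches of 120 bases follow, with the matched letters in capitals, first for 4 members that rose and then for 2 that fell. Each stretch shown holds at least 1 match, so they do not stand for all subunits. The windows of NDUFA5, COX7A2L, NDUFB8 and ATP5MC1, which also rose, held 0 matches and are not shown.
ATP5ME (chr4:674244-674363, - strand): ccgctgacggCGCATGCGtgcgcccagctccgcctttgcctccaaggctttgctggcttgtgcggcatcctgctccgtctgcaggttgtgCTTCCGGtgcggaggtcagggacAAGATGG
NDUFS7 (chr19:1383811-1383930, + strand): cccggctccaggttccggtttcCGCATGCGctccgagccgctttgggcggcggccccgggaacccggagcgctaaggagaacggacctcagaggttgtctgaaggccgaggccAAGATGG
ATP5MC2 (chr12:53676064-53676183, - strand): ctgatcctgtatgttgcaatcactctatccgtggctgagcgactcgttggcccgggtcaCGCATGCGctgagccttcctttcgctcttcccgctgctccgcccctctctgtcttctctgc
NDUFA12 (chr12:95003677-95003796, - strand): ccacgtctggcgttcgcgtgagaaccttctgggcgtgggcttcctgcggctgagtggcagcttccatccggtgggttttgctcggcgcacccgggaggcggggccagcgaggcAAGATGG
NDUFS3 (chr11:47578972-47579091, + strand): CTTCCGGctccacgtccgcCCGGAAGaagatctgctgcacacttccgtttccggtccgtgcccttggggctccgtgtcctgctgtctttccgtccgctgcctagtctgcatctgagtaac
ATP5PF (chr21:25735054-25735173, - strand): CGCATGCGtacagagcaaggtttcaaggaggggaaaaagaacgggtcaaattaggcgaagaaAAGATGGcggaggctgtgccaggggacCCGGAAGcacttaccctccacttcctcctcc
ATP5ME, which rose, and ATP5PF, which fell, both held all 3 sequences. A match is a description of these letters and not of a bound factor.

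The same comparison was then made in MDA-MB-231. Here 9 of the 16 mitochondrial genes fell and none rose, and of 89 nuclear members tested 3 rose and 2 fell. Over all 14884 genes tested, 5.71% were called higher and 9.37% lower, so the nuclear members' shares, 3.37% higher and 2.25% lower, were below that level. The median log2 difference was -0.14 for the mitochondrial genes and 0.03 for the nuclear members, against 0.0017 for all genes. The groups did not overlap for 4 mitochondrial genes and 3 nuclear members, against 18.7% of all genes tested.

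MT-CYB had the largest fall among the mitochondrial RNAs of MDA-MB-231. It stood at 20519, 19250, 18205 and 20222 normalized reads in low and at 16315, 15935, 16725 and 16860 in high glucose. All high libraries were below all low ones (log2 difference -0.25 ± 0.03, limma adjusted p = 8.53e-05), and the call held in all 22 alternatives tried. MT-ND5 differed by -0.21 ± 0.04 (limma adjusted p = 0.00118), the other gene with a call in every alternative. MT-ND4L, MT-ND4, MT-RNR1, MT-ATP8, MT-ND6, MT-ATP6 and MT-ND1 differed by -0.21 to -0.14 and were called. Of these calls, that of MT-ATP6 was lost in 14 of the 22 alternatives, that of MT-ATP8 in 11, those of MT-ND6 and MT-ND1 in 5 each, and the other 3 in 1 each. MT-ND2 (-0.12), MT-CO1 (-0.08), MT-CO2 (-0.04), MT-CO3 (-0.02) and MT-ND3 (-0.01) were not called, and MT-RNR2 stood at 59024 to 65333 in low and 61067 to 66153 in high glucose (log2 difference 0.04 ± 0.03, limma adjusted p = 0.551). The count of 9 called was 5 without low replicate 1, 5 without high replicate 2 and 3 when the spread was estimated over all 4 groups. With MDA-MB-231 low replicate 3 left out, the lowest of its group for these messengers, it was 11. Quantile scaling gave 4 lower and 1 higher. Here and below, that scaling gives genes of equal rank an equal value in every library, so it cannot measure differences of the highest genes.

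Few nuclear members moved in MDA-MB-231, and by little. NDUFB9, an accessory subunit of the membrane arm of complex I, stood at 296, 295, 265 and 275 in low and at 311, 353, 328 and 314 in high glucose. The groups did not overlap (log2 difference 0.21 ± 0.07, limma adjusted p = 0.0434). NDUFA4 of complex IV stood at 1608, 1757, 1609 and 1670 in low and at 1813, 1852, 1852 and 1832 in high glucose, also without overlap (log2 difference 0.15 ± 0.04, limma adjusted p = 0.0126). ATP5PB, a peripheral stalk subunit of complex V, differed by 0.11 ± 0.04 (limma adjusted p = 0.048). SDHA differed by -0.13 ± 0.04 (limma adjusted p = 0.0355) and CYCS by -0.14 ± 0.04 (limma adjusted p = 0.0417), with overlapping groups. Quantile scaling and scaling by nuclear reads each turned this split of 3 higher and 2 lower into 5 higher and 0 lower, and of the 5 genes NDUFA4 alone kept its call in every alternative but 1.

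Whether the lines differed in their response was tested by an interaction over all 16 libraries (MDA-MB-468 response minus MDA-MB-231 response). Of 91 nuclear members, 46 had a higher response in MDA-MB-468 and 2 a lower one, against 17.0% and 13.9% of all 17115 genes tested, and their median difference of response was 0.22 on the log2 scale. Of the 16 mitochondrial genes, none had a higher response and 2 a lower one, with a median of -0.12. NDUFA5 (0.76 ± 0.10, limma adjusted p = 1.58e-05), NDUFA12 (0.59 ± 0.08, limma adjusted p = 2.57e-05), NDUFS7 (0.52 ± 0.12, limma adjusted p = 0.00297) and ATP5MC3 (0.49 ± 0.06, limma adjusted p = 3.83e-06) had the highest interaction among the nuclear members called. NDUFS1 (-0.26 ± 0.06, limma adjusted p = 0.00215) and NDUFS3 (-0.24 ± 0.06, limma adjusted p = 0.00383) were the 2 with a lower response. SDHA and CYCS differed in response by 0.26 ± 0.05 and 0.24 ± 0.06, both called.

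For the mitochondrial RNAs, the interaction set the ribosomal RNA MT-RNR2 apart. Its response differed between the lines by -0.82 ± 0.07 (limma adjusted p = 2.05e-07), and the call held in all 29 alternatives. MT-ND3 differed by -0.23 ± 0.07 (limma adjusted p = 0.0244), a call lost without MDA-MB-231 low replicate 3, without MDA-MB-231 high replicate 3, without MDA-MB-468 low replicate 4, without MDA-MB-468 high replicate 3 and under correction for length or GC content. For the other 12 mitochondrial messengers no difference between the lines was called (log2 interaction -0.17 to 0.02), although quantile scaling called 5 mitochondrial genes and scaling by nuclear reads 4. MT-CO1 was called by edgeR (adjusted p = 0.0499), by DESeq2 (adjusted p = 0.0403) and by limma with a replicate block (adjusted p = 0.0275), and MT-CO3 without MDA-MB-231 high replicate 1 (limma adjusted p = 0.0421). MT-RNR1 differed by -0.44 ± 0.26 and was not called, but without MDA-MB-468 high replicate 1 it differed by -0.64 and was called (limma adjusted p = 0.0284).

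The lines were also compared in low glucose alone, where their earlier media and their identity cannot be told apart. Of 90 nuclear members, 47 were higher and 21 lower in MDA-MB-468, and of 16 mitochondrial genes 6 were higher and 8 lower. Over all 16637 genes tested, 45.3% were called higher and 40.6% lower, so a call is the usual outcome here and single genes are described by size. The nuclear median of 0.23 turned to -0.09, with 31 higher and 43 lower, after correction for transcript length, and the mitochondrial split became 0 higher and 13 lower. GC correction gave 39 higher and 34 lower nuclear members and 3 higher and 10 lower mitochondrial genes, scaling by nuclear reads 56 and 14 nuclear members, and quantile scaling 6 and 4 mitochondrial genes. The split of all genes moved too, from 7529 higher and 6758 lower in the main fit. It was 6573 and 7311 of 16078 with length correction and 6672 and 7358 with GC correction. Of 16637 genes it was 8215 and 6078 when scaled by nuclear reads and 7130 and 6958 under quantile scaling. Over all genes tested the median log2 difference was 0.08, and 0.22 when scaled by nuclear reads. Other genes between the quartiles of the members' lengths had a median of 0.21.

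Among nuclear members averaging at least 5 CPM in the higher line, NDUFB9 had the largest rise, at 265 to 296 normalized reads in MDA-MB-231 low and 1251 to 1362 in MDA-MB-468 low, a fold of 4.64 (log2 difference 2.22 ± 0.05, limma adjusted p = 2.13e-11). NDUFS3 stood at 644 to 700 against 1761 to 1869 (1.43 ± 0.04, limma adjusted p = 6.47e-11). UQCRH, the hinge subunit of complex III, stood at 1439 to 1540 against 3407 to 3676 (1.26 ± 0.04), and its near-identical copy UQCRHL, with which its reads may be split, differed by 1.21 ± 0.10. NDUFV2, of the flavin module of complex I, differed by 1.19 ± 0.05. NDUFS4, an accessory subunit of complex I, was lower in MDA-MB-468, at 543 to 578 against 207.5 to 238 (-1.30 ± 0.05, limma adjusted p = 2.75e-09). NDUFA12 (-1.27 ± 0.06), ATP5F1E, the epsilon subunit of the ATP synthase stalk (-1.20 ± 0.03), NDUFB8 (-1.18 ± 0.06) and COX6A1 (-0.75 ± 0.04) followed. These 10 genes kept their direction and call in every alternative. Subunits of 1 complex thus differed between the lines in both directions. Of these 10 genes, NDUFA12, NDUFS4, ATP5F1E, NDUFB8 and COX6A1, lower in MDA-MB-468 low, rose in high glucose in that line. Of those higher there, NDUFB9 (log2 difference 0.26), NDUFV2 (0.25) and UQCRH (0.14) rose too, UQCRHL (0.22) was not called and NDUFS3 fell (-0.16). Both comparisons use the MDA-MB-468 low libraries and are not independent.

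Among the mitochondrial RNAs, MT-ND3 had the largest line difference (-0.86 ± 0.06, limma adjusted p = 1.01e-07), followed by MT-ND2 (-0.60), MT-ATP6 (-0.56) and MT-ATP8 (-0.54), which were lower in MDA-MB-468. Correction for transcript length moved these 4 to -1.51, -0.92, -0.99 and -1.38, so that their order depended on it, and the calls held. The trend behind that correction was fitted on nuclear genes and applied to these RNAs by the length of each gene. Whether it holds for mitochondrial RNAs was not tested. MT-CYB (0.41 ± 0.06) and MT-RNR2 (0.36 ± 0.05) were higher there, calls that correction for transcript length removed.

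Isoform and paired genes of the terminal complexes followed no single direction between lines. COX4I1 stood at 1837 to 2147 in MDA-MB-231 low and 3489 to 3816 in MDA-MB-468 low (0.87 ± 0.05), and COX6B1 and COX7A2 were higher by 0.64 and 0.60. Correction for transcript length lowered these to 0.0972 (limma adjusted p = 0.093) and 0.0450 (limma adjusted p = 0.411), which ended both calls. NDUFA4L2 had 2.06 to 4.47 normalized reads in MDA-MB-231 low and 12.25 to 22.1 in MDA-MB-468 low, in both cases a low level. ATP5MC2 was lower in MDA-MB-468 low, at 1416 to 1656 against 2065 to 2519. SDHA (1.09), SDHD (0.83) and CYCS (0.57) were higher, while SDHC differed by -0.19 and CYC1 by -0.14, which scaling by nuclear reads turned to 0.01 for CYC1.

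**Figure D5:**
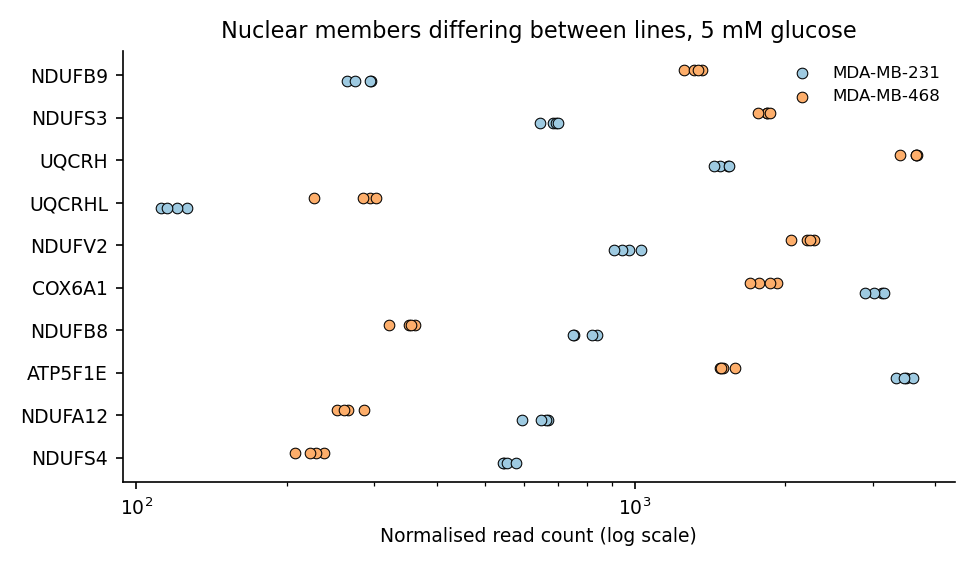
Normalized read counts, on a log scale, of the 10 nuclear members with the largest line difference in low glucose among those averaging at least 5 CPM in the higher line, 5 in each direction. Each point is 1 of 4 libraries of MDA-MB-231 (blue) or MDA-MB-468 (orange). The groups of every gene lie apart, from NDUFS4 (543 to 578 against 207.5 to 238) to NDUFB9 (265 to 296 against 1251 to 1362).

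Genes around the respiratory chain were counted from lists of assembly factors and other mitochondrial genes. These counts stand beside 24.9% of all genes tested called higher and 22.7% lower in MDA-MB-468, and 5.71% and 9.37% in MDA-MB-231. Of 56 assembly factors found, 21 rose and 10 fell in MDA-MB-468 and 1 rose and 1 fell in MDA-MB-231. Among complex I factors, 6 of 18 rose and 3 fell in MDA-MB-468, with COA1 at 0.54, DMAC1 at 0.72 and NDUFAF3 at 0.43 on the log2 scale. Of 12 complex II and III factors, 5 rose and 1 fell in MDA-MB-468, and UQCC3, an early factor of complex III assembly, rose by 1.80 ± 0.10 (limma adjusted p = 8.95e-10) while it fell in MDA-MB-231 (-0.27 ± 0.09, limma adjusted p = 0.0382). BCS1L, which inserts the Rieske protein into complex III, rose by 0.90 ± 0.08 and LYRM7, its partner chaperone, fell by 0.50 on the log2 scale. Of 21 complex IV factors 7 rose and 5 fell, with COX16 at 0.48, COX19 at -0.41 and COA3 at 0.39, and COX19 rose in MDA-MB-231 (0.30 ± 0.08). Of 5 complex V factors and inhibitors 3 rose and 1 fell, with ATPAF1 at 0.54, ATP5IF1, which inhibits ATP hydrolysis, at 0.34 and FMC1 at 0.51.

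Of 26 genes of the machinery that reads mitochondrial DNA, 8 rose and 5 fell in MDA-MB-468, beside 24.9% and 22.7% of all genes, with a median log2 difference of -0.03, and none was called in MDA-MB-231. ELAC2, which cuts transfer RNAs from the precursor, rose by 0.38 ± 0.05, HSD17B10, part of the RNase P that makes the other cut, by 0.29 ± 0.05, and MGME1, a mitochondrial exonuclease, fell by 0.30 on the log2 scale. Of 12 regulators of respiration, 5 of 11 tested rose and 1 fell in MDA-MB-468. GABPB1, the beta subunit of GABP, stood at 0.37 ± 0.07, PERM1 at 1.38 ± 0.26 and HIF1A at 0.15 ± 0.04. In MDA-MB-231 PPARGC1A rose by 0.48 ± 0.09 and MYC fell by 0.23 on the log2 scale.

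Genes that feed the chain were counted against the same shares of all genes, 24.9% higher and 22.7% lower in MDA-MB-468 and 5.71% and 9.37% in MDA-MB-231. Of 14 genes of the citric acid cycle, 7 rose and 2 fell in MDA-MB-468, where SUCLG1 rose by 0.75 ± 0.05 and FH, fumarase, by 0.51 ± 0.04 (limma adjusted p = 9.11e-09) and IDH3G by 0.23 ± 0.03, and none rose and 3 fell in MDA-MB-231, where FH fell by 0.18 on the log2 scale. Of 21 genes of other electron entry and transport, 12 rose and 2 fell in MDA-MB-468 and 1 fell in MDA-MB-231. ETFDH, which passes electrons from fatty acid oxidation to ubiquinone, fell by 0.91 on the log2 scale in MDA-MB-468, SQOR, which does so from sulfide, rose by 0.46 ± 0.05 and VDAC1, the outer membrane channel, by 0.36 ± 0.03.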

How the data were processed

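RNA of 16 libraries was sequenced, 4 in each of 4 groups. The study's methods name TruSeq stranded mRNA preparation for the tumor libraries and no separate kit for the cell lines. The authors trimmed reads with Trimmomatic, aligned them with TopHat to hg19 and used Ensembl annotation, per the study's methods, while the labels' processing notes list hg38. The counter and its use of strand are not given in the sources used here. The deposited signal is reads per gene divided by a library factor, not counts. Multiplying back gave whole reads for 100% of values (tolerance 0.01), 14094597 to 24425916 per library, so 3 reads are 0.123 to 0.213 CPM. That range comes from the library totals alone and is no interval for counting error. The deposited table had 18332 Ensembl IDs, 16633 of them with a symbol.

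Differences were tested with limma 3.58.1 (R 4.3.3) on log2(value + 1) with a mean trend, over all genes with 0.5 CPM in at least 2 libraries of the fit, and p-values were adjusted by Benjamini-Hochberg over all of them (threshold 0.05). Fold changes are on the log2(value + 1) scale and understate changes of low genes. The fits were high against low in each line (8 libraries), MDA-MB-468 against MDA-MB-231 in low glucose (8) and their interaction (16), and comparisons sharing a group are not independent. Alternatives were count tests of the whole reads (edgeR 4.0.16, DESeq2 1.42.0), other pseudocounts, filters, scalings, corrections for length and GC, a replicate block and leaving out each library. The length and GC trends were fitted on nuclear genes alone and then applied to the mitochondrial RNAs as well. The scripts were tested on simulated data.

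Named genes were the mitochondrial messenger and ribosomal RNAs, the largest called rise and fall of each complex per line, the 4 highest and lowest interactions, the 5 largest line differences in each direction (all with at least 5 CPM in the higher group), the paired isoforms, the SDH genes, CYC1 and CYCS, and at most 3 genes of lowest adjusted p per pathway list. Members and lists were chosen with earlier results of these data known.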

Additional observations from a re-analysis of the deposited data

Results flagged for a closer look

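In 9 of 204 sets of 4 libraries examined, 1 library lay apart from its group by Dixon's ratio of gap to range, and chance gives about 1 in 20. MDA-MB-231 low replicate 3 was low for MT-CO2 (ratio 0.927), MT-ND4 (0.918) and MT-ATP6 (0.961). MDA-MB-468 high replicate 4 was high for MT-CO3 (0.840). In MDA-MB-468 low, replicate 2 was high for MT-RNR1 (0.871) and for ATP5F1E (0.835), and replicate 4 was low for UQCRH (0.924). MDA-MB-231 high replicate 3 was low for COX4I1 (0.960), and MDA-MB-231 low replicate 2 was high for the nuclear share of reads (0.848).

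The response to glucose differed between the lines, by limma's interaction term with adjusted p under 0.05, for 22 of 47 named genes. Of these, 18 had a higher and 4 a lower response in MDA-MB-468. Some genes were named for their interaction or MDA-MB-468 response, so these counts do not measure how common such differences are. Over all 17115 genes tested, 17.0% had a higher and 13.9% a lower response. In complex I the log2 interaction was 0.76 for NDUFA5, 0.59 for NDUFA12, 0.52 for NDUFS7, 0.41 for NDUFS4, 0.39 for NDUFB8, 0.24 for NDUFV2, -0.26 for NDUFS1, -0.24 for NDUFS3 and -0.23 for MT-ND3. In complexes II and III and cytochrome c it was 0.26 for SDHA, 0.44 for CYC1 and 0.24 for CYCS. In complex IV it was 0.38 for COX8A, 0.34 for COX7A2, 0.30 for COX7A2L and 0.22 for COX6B1, whose call was lost in 13 alternatives. In complex V it was 0.49 for ATP5MC3, 0.43 for ATP5MC2, 0.43 for ATP5ME, 0.35 for ATP5MC1 and 0.22 for ATP5F1E. For the 16S ribosomal RNA MT-RNR2 it was -0.82.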

How the results depend on the processing

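In MDA-MB-468 the count of nuclear members called stayed between 63 and 73 and that of mitochondrial genes between 14 and 15 in the alternatives run, and the nuclear median was 0.20 when scaled by nuclear reads. In MDA-MB-231 the 5 nuclear calls became 2 with no filter, 8 with GC correction, 2 with a replicate block, with or without length correction, and 1 to 7 when 1 library was left out, and their median was -0.0116 with length correction, with or without the block. The 9 mitochondrial calls there became 5 under quantile scaling, 3 in the 4-group model and 5 to 11 without 1 library, and MT-CO3 turned to 0.14 under quantile scaling. Quantile scaling fixes the value of each rank and is a poor measure of the highest genes. Under it MT-CO1, called in MDA-MB-468, stood at 0.0000 there. Deviations of same-numbered libraries over all genes had correlations of -0.04 to 0.04, all under 0.1, so the numbers were not taken as pairs, though in MDA-MB-468 the own number was the best match for 3 of 4 libraries (MDA-MB-231: 0 of 4). Of all calls in MDA-MB-231, 37.9% were higher, against 52.7% scaled by nuclear reads and 48% by quantiles, and of interaction calls 55% against 41.2% scaled by nuclear reads.

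For the line difference, the nuclear median was 0.20 with a 5 CPM filter, 0.19 with TMM or edgeR, 0.29 under quantile scaling, 0.38 scaled by nuclear reads, 0.0349 with GC correction and -0.0862 with length correction, block or not. The mitochondrial median was 0.0504 under quantile scaling, -0.0312 scaled by nuclear reads, -0.34 with GC correction and -0.58 with length correction, block or not. Length correction, block or not, turned MT-ND6 to -0.27, MT-ND5 to -0.13, MT-CO3 to -0.25, MT-RNR1 to -0.29, NDUFA4 to -0.0618 and SDHB to -0.15. GC correction turned MT-CO3 to -0.0571, MT-RNR1 to -0.12 and SDHB to -0.0107. Quantile scaling turned MT-ND4 to 0.0164 and ATP5MC3 to 0.11, and scaling by nuclear reads turned CYC1 to 0.0061, COX7A2L to 0.10 and ATP5MC3 to 0.14. The cause was not tested.

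For the interaction, the nuclear median was 0.16 scaled by nuclear reads and up to 0.26 without 1 library (MDA-MB-468 high replicate 2), and the 2 mitochondrial calls became 5 under quantile scaling (median -0.21), 4 scaled by nuclear reads, 3 with a replicate block, edgeR, DESeq2 or without 1 of 2 libraries, 1 with length or GC correction and 1 without any of 4 libraries. Without the ribosomal RNAs the mitochondrial share was 2.45% (MDA-MB-231 low), 2.32% (MDA-MB-231 high), 2.35% (MDA-MB-468 low) and 1.97% (MDA-MB-468 high). Other genes of the members' lengths had medians of 0.0460 (MDA-MB-231), 0.0644 (MDA-MB-468) and 0.21 (line difference). Of 4440 values of named genes under alternatives, 4203 kept their call or lack of one without a counted reversal. A change of sign was counted only where the gene was called in the main fit or the alternative. Uncalled values near 0 could therefore change sign, as NDUFS1 did in MDA-MB-231 (-0.0666 to 0.0350).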
